A study of Homo sapiens with 6 samples.

Results

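The 39 genes described here encode the machinery that copies DNA and the regulators of the G1/S transition, the step at which a cell leaves G1 and begins to copy its genome. They were chosen by name, as the rows of the deposited tables whose gene symbol stands in a list of replication and G1/S genes. All 39 were found among the 32192 genes of the count table and the 31951 genes of the FPKM table (fragments per kilobase, scaled to library depth). All 39 also passed the filter on low counts, which left 16971 genes to be tested. By role, 11 act in origin licensing, 8 in origin firing, 6 in priming, the sliding clamp and the fork, 5 in nucleotide supply, 5 are E2F factors or E cyclins, and 4 act on the chromatin of new DNA.

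RNA was sequenced from A549 cells, an established human lung adenocarcinoma line, in 3 libraries with APEX1 overexpression (APEX1-OE) and 3 libraries with a control plasmid (Ctrl). APEX1 is the main endonuclease of base excision repair and also has a redox function on transcription factors. The insert was cloned into the pIRES-hrGFP-1a vector and brought in by transient transfection, so both groups are transfected populations, and no source used here gives the share of cells that took up plasmid. The comparison asked how excess APEX1 changes gene expression and splicing in cells whose proliferation was followed in parallel.

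Total counts lay between 28131955 and 41009197 per library. For APEX1 itself, the APEX1-OE libraries gave 618, 680.3 and 768 FPKM in replicate order and the Ctrl libraries 129, 126 and 124, a log2 fold change of 2.42 (edgeR quasi-likelihood test, adjusted p = 0.00809). Without APEX1-OE replicate 2 or 3, or without Ctrl replicate 1 or 2, its adjusted p in edgeR was 0.118, 0.0674, 0.210 and 0.207. Keratins 8, 18 and 7 had at least 118489 counts in every library, whereas CDH1 had 817 to 2383 counts and EPCAM only 15 to 47. Of the leukocyte and endothelial markers, CD14 alone passed the filter. Of the fibroblast markers, 4 of 5 passed, with COL1A1 at 121 to 188 counts and COL1A2 at 0 or 1. The first principal component of all tested genes held 72.6% of the variance and did not follow the condition. APEX1-OE replicate 1 had a negative score together with Ctrl replicates 1 and 2 (side A, 28131955 to 34398771 counts), and APEX1-OE replicates 2 and 3 and Ctrl replicate 3 had positive scores (side B, 35234411 to 41009197 counts). These sides were read from the data, not from the labels. What set them apart was not tested.

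Replication is prepared in G1, when the origin recognition complex, CDC6 and CDT1 load the ring of MCM2 to MCM7 onto DNA. Loading is blocked later in the cycle by geminin, the product of GMNN. At the start of S phase the kinase CDC7 with its activator DBF4, together with CDC45, the GINS complex and MCM10, turns the loaded rings into active helicases. The genes for most of these proteins, and for the enzymes that make deoxynucleotides, are classical targets of E2F transcription factors, which the retinoblastoma protein holds back until cyclin kinases release them.

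The letters bound by E2F were looked up in the promoters of the members, since a shared site is what these genes are known for. A window of 250 bases before to 50 bases after each RefSeq transcription start (GRCh38.p14) was searched on both strands for TTTCCCGC, TTTGGCGC, TTTGCCGC and TTTCGCGC. A window was at hand for 35 members, and 21 of these 35 (60.0%) had a match, against 3.99% of all 27305 genes with a window. Counted by window, 22 of the 51 windows of the members (43.1%) matched, against 3.31% of all 35116 windows. With the first T left off each motif, 28 of the 35 members matched (80.0%), against 15.3% of all 27305 genes with a window. The windows printed here belong to 4 GC-rich and 3 GC-poor members, which differed in opposite directions between side A and side B, as described further on. Each is 28 bases on the strand of the gene, 5′ to 3′, with the match in capitals, and a match to the other strand is shown as its reverse complement.
E2F1, chr20:33686401-33686428, minus strand: tggctctttcGCGGCAAAaaggatttgg
E2F1, chr20:33686388-33686415, minus strand: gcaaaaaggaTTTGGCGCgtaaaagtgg
MCM2, chr3:127598403-127598430, plus strand: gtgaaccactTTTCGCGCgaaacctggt
CDT1, chr16:88803744-88803771, plus strand: cagggcgcccGCGGGAAAtttggcggga
MCM7, chr7:100101389-100101416, minus strand: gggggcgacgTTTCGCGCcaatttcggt
CDC6, chr17:40287876-40287903, plus strand: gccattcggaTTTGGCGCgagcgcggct
MCM6, chr2:135876516-135876543, minus strand: attggtcaggTTTGGCGCgaaatctcca
CLSPN, chr1:35769966-35769993, minus strand: ctctggctggGCGGGAAAgcaagaacag

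The E2F1 matches lay 33 and 20 bases before the start, so the promoter of an E2F gene itself held the letters. In MCM2, where the match began at base 3 of the transcript, the run continues into an overlapping match on the other strand. The printed match of MCM6 also overlaps one on the other strand, and a second such pair further upstream is not printed. The match of CDC6 began at base 8 of the transcript. A match says only that these letters are there, and no binding was measured in these cells.

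Among the licensing genes, levels within the MCM ring were uneven. MCM7 was the highest, at 55.02, 48.6 and 38.9 FPKM in the APEX1-OE libraries, in the order of replicates 1, 2 and 3 kept throughout, and at 48.8, 48.4 and 38.1 FPKM in Ctrl. MCM6 was the lowest of the ring, at 2.35, 5.26 and 5.99 FPKM in APEX1-OE and at 3.13, 2.90 and 4.96 FPKM in Ctrl. The other 4 subunits lay close together, with means over the 6 libraries of 14.5 FPKM for MCM2, 13.5 for MCM4, 13.5 for MCM3 and 11.2 for MCM5, and their ranges overlapped. MCM7 shares 392 bases with AP4M1 on the opposite strand and holds 3 microRNA genes, so reads of the locus may not all belong to it.

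MCM2 stood at 18.02, 15.3 and 12.7 FPKM in APEX1-OE and at 15.4, 14.4 and 11.5 FPKM in Ctrl. In both groups MCM2 was lowest in replicate 3, and the lowest APEX1-OE value lay below 2 of the Ctrl values. CDT1, which loads the ring, stood at 9.46, 6.93 and 5.49 FPKM in APEX1-OE and at 8.19, 8.07 and 4.93 FPKM in Ctrl. GMNN, whose product binds CDT1 and stops loading, ran the other way, at 2.94, 5.98 and 8.87 FPKM in APEX1-OE and at 4.26, 4.93 and 6.44 FPKM in Ctrl. CDC6, like GMNN, was lowest on side A, from 2.21 FPKM in APEX1-OE replicate 1 to 4.65 in replicate 3, with 2.88 to 3.75 FPKM in Ctrl. The origin recognition subunits varied less, ORC1 between 1.60 and 2.13 FPKM and ORC6 between 7.43 and 9.27 FPKM, with overlapping groups.

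Most of the origin firing genes were lower. GINS1, a subunit of the helicase that forms at the fired origin, was the highest of them, at 7.43 to 10.0 FPKM, and it shares 1107 bases with NINL on the other strand. CDC45 and the other GINS subunits lay between 1.99 FPKM (GINS3) and 5.13 FPKM (GINS4). The kinase pair was lower still: CDC7 stood at 0.44, 1.16 and 1.37 FPKM in APEX1-OE and at 0.32, 0.54 and 1.34 FPKM in Ctrl, and DBF4 at 0.54 to 1.42 FPKM. MCM10, which is needed to activate the loaded ring, stood at 0.88, 2.00 and 2.22 FPKM in APEX1-OE and at 0.86, 1.14 and 1.55 FPKM in Ctrl. In CDC7, DBF4 and MCM10 alike, APEX1-OE replicate 1 lay near Ctrl replicate 1 and below the other APEX1-OE libraries.

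PCNA, the sliding clamp that holds the polymerases on DNA, had the highest level of all 39 genes. It stood at 66.0, 108 and 141 FPKM in APEX1-OE and at 119.6, 105 and 116 FPKM in Ctrl, so the APEX1-OE libraries enclosed all 3 Ctrl values. Primase and its polymerase partner were far lower, with means over the 6 libraries of 1.73 FPKM for POLA1, 5.07 for POLA2, 3.53 for PRIM1 and 2.85 for PRIM2. CLSPN, whose product claspin links a stalled fork to the checkpoint kinase, was among the lowest, at 0.27, 0.56 and 0.68 FPKM in APEX1-OE and at 0.17, 0.24 and 0.50 FPKM in Ctrl, from 29 to 142 counts per library. PCNA has 3 named pseudogenes in the annotation, and reads of near-identical copies may be shared with them. POLA2 shares 44032 bases with another protein-coding gene on the same strand. PRIM1 shares 11098 bases with a protein-coding gene and 1191 with NACA, also on its own strand. Reads of these loci may not all belong to POLA2 and PRIM1.

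TK1, the salvage kinase for thymidine, was the highest of the nucleotide supply genes. It stood at 54.5, 37.7 and 33.0 FPKM in APEX1-OE and at 47.8, 46.4 and 31.1 FPKM in Ctrl. RRM1, the large subunit of ribonucleotide reductase, ran the other way, at 3.05, 8.55 and 10.3 FPKM in APEX1-OE and at 4.90, 4.61 and 9.15 FPKM in Ctrl. Both genes thus split the libraries by side rather than by condition, in opposite directions. RRM2, the small subunit that is made in S phase, lay between 6.53 and 12.2 FPKM, thymidylate synthase (TYMS) between 21.6 and 29.5 FPKM and dUTPase (DUT) between 9.33 and 15.2 FPKM. TYMS overlaps 3261 bases of ENOSF1 on the opposite strand, RRM2 has 3 pseudogenes and DUT has 8. The paper names a stranded library kit, but no source used here says whether the counting used the strand.

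The E2F activators differed in level and in their order over the libraries. E2F1 stood at 10.4, 7.84 and 6.14 FPKM in APEX1-OE and at 8.24, 8.40 and 5.16 FPKM in Ctrl. E2F3 stood at 2.23, 4.50 and 4.69 FPKM in APEX1-OE and at 2.59, 2.37 and 4.40 FPKM in Ctrl, the reverse order. E2F2 was lower, at 0.63 to 0.84 FPKM. Cyclin E was almost wholly CCNE1, at 10.2 to 14.3 FPKM, beside 0.05 to 0.35 FPKM of CCNE2, which had 6 to 54 counts per library and overlaps INTS8 and NDUFAF6 on the other strand.

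Among the genes that act on new chromatin, CHAF1A and CHAF1B varied least in FPKM. CHAF1A, the large subunit of the CAF-1 histone chaperone, lay between 5.67 and 6.45 FPKM, and its partner CHAF1B between 2.30 and 2.70 FPKM. UHRF1, which brings the maintenance methyltransferase to hemimethylated DNA, lay between 4.57 and 6.19 FPKM. SLBP, which binds the stem-loop of histone mRNA, lay between 10.9 and 16.7 FPKM. For all 39 genes the exact two-sided permutation test of the FPKM means gave p between 0.2 (CLSPN and CHAF1A) and 1.0, where 3 libraries against 3 allow no p under 0.1.

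**Figure D1:**
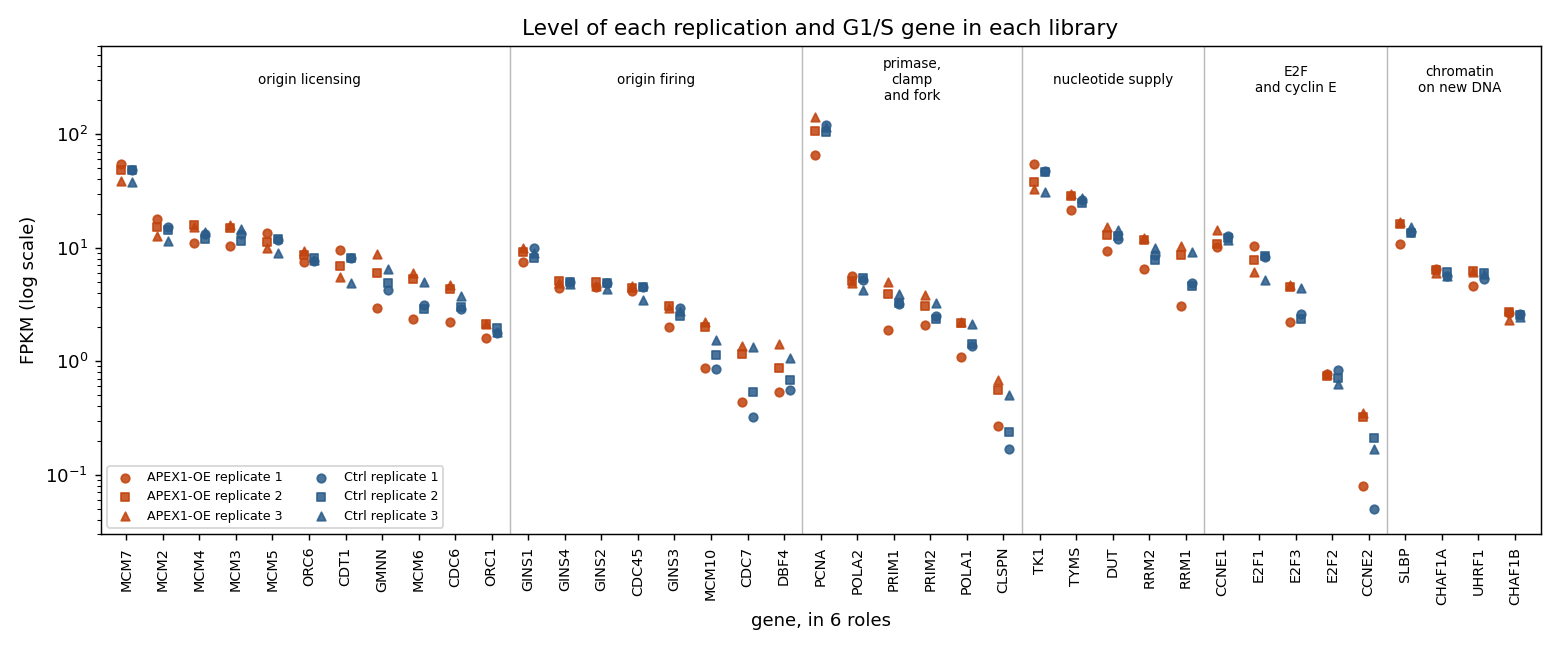
FPKM on a log scale (y axis) of each gene (x axis, in 6 roles, by mean level within a role) in the 3 APEX1-OE libraries (orange) and the 3 Ctrl libraries (blue), 1 point per library. PCNA is highest and CCNE2 lowest, and the colours overlap in every gene.

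In the comparison of APEX1-OE with Ctrl, no member was called. Of 39, 0 passed an adjusted p under 0.05 when the condition alone was modelled (edgeR quasi-likelihood test), beside 1 of all 16971 genes (0.00589%), which was APEX1. At an unadjusted p under 0.05, 0 members were higher and 0 lower, beside 0.395% of all genes higher and 0.301% lower. DESeq2 and limma-voom also called 0 members, and at an unadjusted p under 0.05 they found 0. The median log2 fold change of the members was 0.07, beside 0.03 over all genes, and 30 of 39 (76.9%) lay above 0, beside 57.5% of all genes. In bulk RNA, fewer cells in S phase and less RNA per cell cannot be told apart, so these values describe the population only.

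No fold change of a single member was past the test. The largest was CCNE2, at a log2 fold change of 0.73 with a standard error of 0.57. CLSPN followed at 0.70 with a standard error of 0.41, and MCM10 at 0.48 with a standard error of 0.34. On the CPM scale (counts scaled to library depth with TMM factors), CLSPN stood at 1.86, 3.25 and 3.82 in APEX1-OE and at 1.08, 1.55 and 2.85 in Ctrl, so 2 of the 3 APEX1-OE values exceeded every Ctrl value. PCNA had the lowest fold change, a log2 value of -0.16 with a standard error of 0.23. The direction of many members rested on single libraries. Without APEX1-OE replicate 1, 12 of 39 members changed sign, among them E2F1 (from 0.16 to -0.18), MCM2 (from 0.16 to -0.10), MCM5 (from 0.09 to -0.16), CDT1 (from 0.05 to -0.31), TK1 (from 0.003 to -0.37), MCM7 (from 0.07 to -0.17) and PCNA (from -0.16 to 0.01). Without Ctrl replicate 3, 10 members did, E2F1 going to -0.07, MCM5 to -0.07 and CDT1 to -0.19. No share of all genes that changed sign is at hand, so these counts only describe the members. All 39 adjusted p-values in edgeR were 1.0.

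No member separated the groups, since 0 of 39 had all 3 APEX1-OE libraries above all 3 Ctrl libraries in CPM (1.38% of all genes did), and 0 had all below (2.01% of all genes). This count rested on APEX1-OE replicate 1. Without that library, 13 members (33.3%) had both remaining APEX1-OE libraries above the 3 Ctrl libraries, and 0 had both below, beside 16.8% of all genes above and 8.98% below. They were CDC6, MCM3, MCM4, MCM6, MCM10, POLA1, PRIM1, CLSPN, RRM2, TYMS, E2F3, CCNE2 and SLBP. The 2 APEX1-OE libraries that remain then lie on side B, and 2 of the 3 Ctrl libraries on side A.

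Summed over all 39 genes, the APEX1-OE libraries held 1403, 1382 and 1369 CPM and the Ctrl libraries 1424, 1393 and 1242 CPM. APEX1-OE averaged 1385 ± 17.1 CPM, against 1353 ± 97.5 CPM for Ctrl (SD, n = 3 libraries each). The means differed by less than the Ctrl SD but by more than the APEX1-OE SD (exact two-sided permutation test, p = 0.9). The spread of the groups depended on the unit. Summed FPKM was 379, 448 and 477 in APEX1-OE and 443, 420 and 418 in Ctrl. APEX1-OE then averaged 434 ± 50.5 FPKM, against 427 ± 13.7 FPKM for Ctrl (SD, n = 3 each, exact two-sided permutation test, p = 0.9). By role, the sums in CPM differed least in relative terms in the chromatin genes, with 110.0 ± 3.40 CPM for APEX1-OE against 109 ± 5.35 CPM for Ctrl (SD, n = 3 each). The E2F and cyclin E genes summed to 84.5 ± 2.39 CPM for APEX1-OE against 79.0 ± 4.63 CPM for Ctrl (SD, n = 3 each, exact two-sided permutation test, p = 0.2), the lowest p of any role in CPM.

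The order of the libraries in the members followed the sides. In 12 of 39 members (30.8%) all 3 side A libraries lay above all 3 side B libraries in CPM, beside 30.9% of all genes. These were CDT1, MCM2, MCM5, MCM7, CDC45, GINS2, GINS4, POLA2, TK1, E2F1, E2F2 and CHAF1B. In 13 members (33.3%) all side A libraries lay below, beside 35.5% of all genes, and these were CDC6, GMNN, MCM6, CDC7, DBF4, MCM10, POLA1, PRIM1, PRIM2, CLSPN, RRM1, RRM2 and E2F3. Both shares were near those of all genes, and the members were among the genes from which the sides were read, so the counts are a description. An E2F match stood in the promoter of 7 of the 10 former with a window and of 7 of the 13 latter.

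The direction went with base composition. GC content, taken from the longest transcript of each gene in GENCODE release 44, ran from 36.9% in CCNE2 to 64.3% in CDT1. Across the 39 members, GC content and the log2 difference of side B minus side A had a Pearson r of -0.83 and a Spearman rho of -0.84, beside -0.78 and -0.80 over 16746 tested genes with a known GC content. These correlations are across genes that share the same 6 libraries, and they are given as a description. Of the 8 members with a GC content of at least 55%, namely CDT1, MCM2, MCM5, MCM7, TK1, E2F1, E2F2 and CHAF1A, 7 were above on side A, beside 69.5% of all genes of that class. Of the 16 members from 45% to 55%, only 5 were above and 2 below on side A, beside 26.3% and 26.5% of all genes of that class. Of the 15 members under 45%, 11 were below on side A, beside 73.0% of all genes of that class. Their median deviation from the mean over libraries, in log2 CPM, was -0.42 in APEX1-OE replicate 1 and 0.50 in APEX1-OE replicate 3, while that of the GC-rich members was 0.47 and -0.32. The part of depth or base composition in these differences was not tested.

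**Figure D2:**
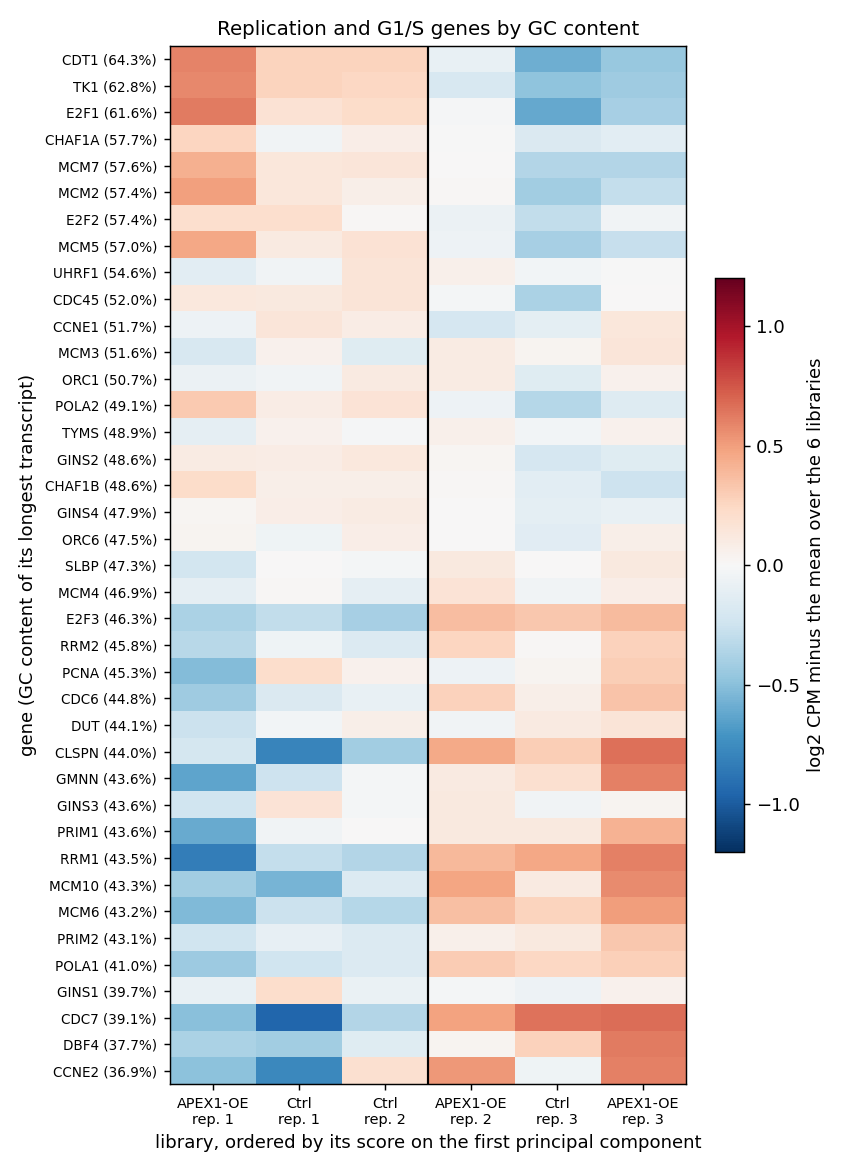
Deviation of log2 CPM from the mean over the 6 libraries (colour) for each gene (rows, from high to low GC content) in each library (columns, ordered by the first principal component, with a line between side A and side B). CDT1 (64.3%) is above its mean in all side A libraries and below it in all side B libraries and CDC7 (39.1%) the reverse, while GC-poor GINS1 (39.7%) is highest in Ctrl replicate 1, on side A.

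Some proteins that work as partners had mRNAs at different ends of this range, and the ratios of their levels differed between the sides. The FPKM ratio of CDT1 to GMNN, the loader to its inhibitor, was 3.22, 1.16 and 0.619 in APEX1-OE and 1.92, 1.64 and 0.766 in Ctrl. It was above 1.6 in all side A libraries and below 1.2 in all side B libraries, with a GC difference of 20.7 percentage points between the genes. The ratio of MCM7 to MCM6 was 23.4, 9.24 and 6.49 in APEX1-OE and 15.6, 16.7 and 7.69 in Ctrl, across a GC difference of 14.4 points. E2F1 to E2F3 was 4.67, 1.74 and 1.31 in APEX1-OE and 3.18, 3.54 and 1.17 in Ctrl. In contrast, CHAF1A to CHAF1B lay between 2.19 and 2.60 in all libraries, although these genes differ by 9.1 points. PRIM1 to PRIM2, which differ by 0.5 points, lay between 0.914 and 1.38. A small GC difference did not go with a steady ratio in every pair. RRM2 to RRM1, which differ by 2.3 points, was 2.14, 1.37 and 1.19 in APEX1-OE and 1.77, 1.71 and 1.09 in Ctrl, higher in all side A than in all side B libraries, and CDC7 to DBF4, which differ by 1.4 points, lay between 0.571 and 1.32. None of the 11 ratios computed separated APEX1-OE from Ctrl (exact two-sided permutation tests, p between 0.2 and 1.0, unadjusted).

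Within the sides, 10 members (25.6%) had APEX1-OE above Ctrl on both, that is APEX1-OE replicate 1 above Ctrl replicates 1 and 2, and APEX1-OE replicates 2 and 3 above Ctrl replicate 3. They were CDT1, MCM2, MCM5, MCM7, POLA2, CLSPN, TK1, E2F1, E2F2 and CHAF1A, and 0 members lay below on both. Of all genes, 17.8% were above on both sides and 10.0% below. All 8 GC-rich members were in this count, beside 32.6% of all genes with a GC content of at least 55%, but E2F2 was there on a near tie, at 5.505 CPM in both APEX1-OE replicate 1 and Ctrl replicate 1, and in FPKM it was lower in APEX1-OE replicate 1 (0.77 against 0.84). Where every margin had to exceed 1%, a limit set after the values were seen, 8 members remained without MCM7 and E2F2 (20.5%), beside 15.8% of all genes, and 6 of the 8 GC-rich members, beside 29.4% of that class. E2F1 stood at 35.95 CPM in APEX1-OE replicate 1 against 26.1 and 27.1 in Ctrl replicates 1 and 2, and at 22.9 and 17.4 CPM in APEX1-OE replicates 2 and 3 against 14.9 in Ctrl replicate 3. MCM2 stood at 90.1 CPM against 70.5 and 67.3 on side A, and at 64.5 and 52.3 CPM against 48.0 on side B. For MCM7 and TK1 too the margin on side B was small, at 207 and 161.0 against 160.8 CPM in MCM7, and at 76.0 and 64.5 against 62.0 CPM in TK1.

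**Figure D3:**
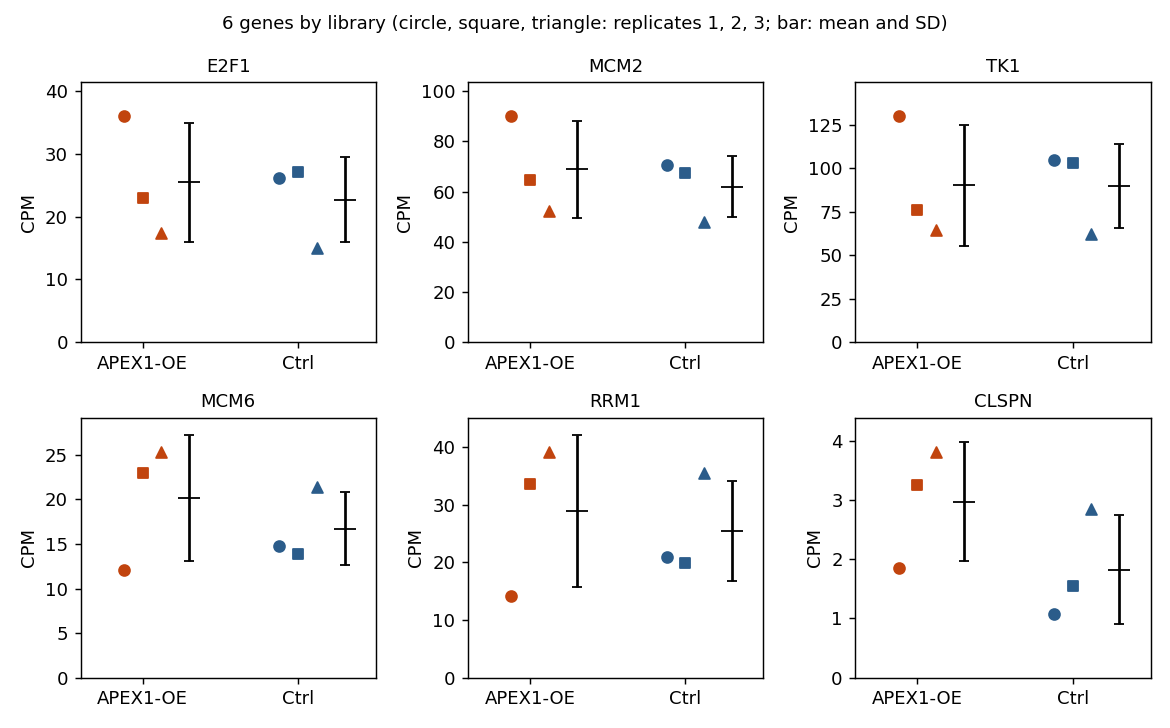
CPM (y axis, from 0) in each APEX1-OE library (orange) and each Ctrl library (blue) for 6 genes chosen after their values were seen, with the mean and SD of each group as a bar. E2F1, MCM2 and TK1 are high in APEX1-OE replicate 1 and low in replicate 3 of both groups, MCM6 and RRM1 run the other way, and the groups overlap in all 6.

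With the side as a second term in edgeR, 6 members had an unadjusted p under 0.05 and were higher in APEX1-OE (15.4%), and 0 were lower, beside 8.61% of all genes higher and 3.02% lower. E2F1 had a log2 fold change of 0.43 with a standard error of 0.12 (edgeR, adjusted p = 0.350). MCM2 had 0.34 with a standard error of 0.10 (edgeR, adjusted p = 0.356), CDT1 0.33, MCM5 0.28, TK1 0.25 and MCM7 0.24. All 6 belong to the GC-rich class, in which 21.3% of all genes were higher at that p. No member was called, beside 4 of all genes (0.0236%). The sides were read from the same counts, so p-values with this term take no account of that choice.

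When an offset per gene and library for GC content and length was added, again 6 members were higher at an unadjusted p under 0.05 (15.4%) and 0 lower, beside 7.77% and 4.79% of all genes. MCM2, MCM5 and E2F1 were shared by both fits, while CDT1, TK1 and MCM7 were replaced by POLA2, MCM10 and CLSPN. MCM2 then had a log2 fold change of 0.24 with a standard error of 0.07, and its adjusted p of 0.216 in edgeR was the lowest of any member in any setting tried. E2F1 had 0.28 with a standard error of 0.09. POLA2, which overlaps another protein-coding gene on the same strand, had 0.26 with a standard error of 0.08. CLSPN had 0.43 and MCM10 0.29. Of all genes, 0.0707% were called, and 0 members. The median over the members was 0.01 with the side alone, beside 0.01 over all genes, and 0.08 with the offset, beside 0.01 over all genes. Above 0 lay 21 members (53.85%) with the side alone, beside 51.56% of all genes, and 29 (74.36%) with the offset, beside 51.75%.

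CLSPN, the claspin gene, was the member that most often crossed an unadjusted p of 0.05 under other settings. Without APEX1-OE replicate 1 its log2 fold change was 0.91, and 3 members (7.69%; CLSPN, MCM10 and CCNE2) were higher at that p, beside 5.11% of all genes. Without Ctrl replicate 3 its log2 fold change was 1.18, and 2 members (5.13%; CLSPN and CDC7) were higher, beside 2.94%. It was the only member at that p with the replicate number as a block, beside 2.83% of all genes higher, and without a filter on low counts, beside 1.4%. Its adjusted p in edgeR lay between 0.391 and 1.0 over these settings and the fits with the side.

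**Figure D4:**
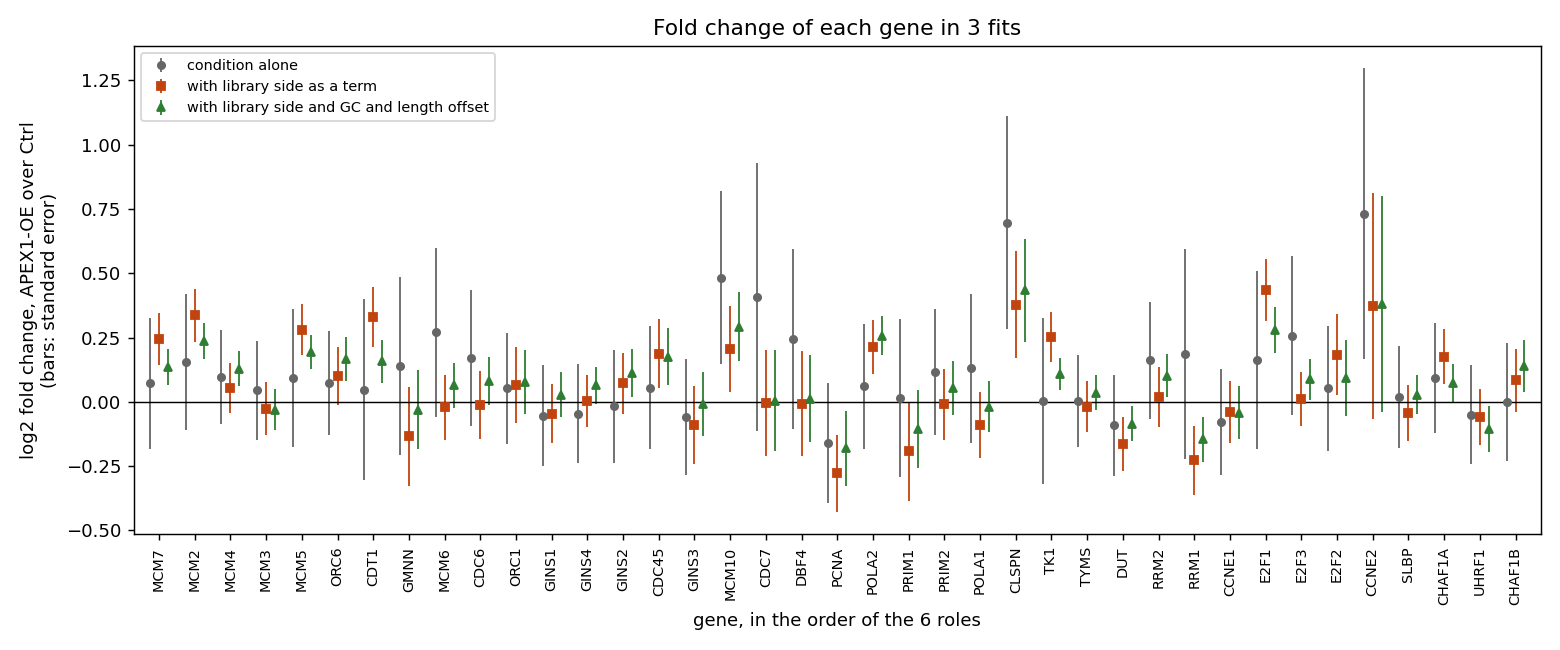
Log2 fold change of APEX1-OE over Ctrl (y axis, bars show the standard error) for each gene (x axis, in the order of the roles) with the condition alone (grey), with the library side as a term (orange) and with side and the offset for GC content and length (green). E2F1, MCM2 and MCM5 lie above 0 and PCNA below 0 in all 3 fits, all of which hold the 6 libraries, and the error bars are widest with the condition alone.

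In the rest of the pathway no gene was called either. Of 81 listed genes in 5 groups, 78 were tested, 0 were called and 0 had an unadjusted p under 0.05 with the condition alone. Their median log2 fold change was 0.08, and 61 (78.21%) lay above 0, beside 57.5% of all genes. With the side as a term 36 (46.15%) lay above 0, beside 51.56% of all genes. With the offset added it was 43 (55.13%), beside 51.75%. The lowest p-values were those of DNA2, a nuclease and helicase of Okazaki fragment processing, at 0.54 with a standard error of 0.35, CDC25A, the phosphatase that activates CDK2, at 0.31 with a standard error of 0.21, and HELLS, a chromatin remodeller, at 0.52 with a standard error of 0.39. With the side as a term, 12 were higher (15.4%) and 3 lower (3.85%) at an unadjusted p under 0.05, beside 8.61% and 3.02% of all genes. With the offset 6 were higher (7.69%) and 1 lower (1.28%), beside 7.77% and 4.79% of all genes. Over the groups, the median log2 fold change with the condition alone was 0.12 for 16 other origin and helicase factors, 0.02 for 22 polymerase, clamp loader and Okazaki genes, 0.08 for 11 other nucleotide supply genes, 0.13 for 21 genes of RB, E2F and G1 cyclin control, and 0.08 for 8 other histone chaperone and methylation genes.

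By the same rule of lowest p, DBF4B, ORC3 and TOPBP1 led the origin factors, RPA3 and RFC1 followed DNA2, CTPS1, RRM2B and ATIC led nucleotide supply, CCND1 and CDK6 followed CDC25A, and SUPT16H and DNMT1 followed HELLS, and none of these had an unadjusted p under 0.05 with the condition alone. CDKN2A, the gene of the G1 inhibitor p16, was chosen after its values were seen: it had 0 counts in 5 libraries and 2 counts in Ctrl replicate 2, and was not tested. CDKN1A, the p21 gene, was also chosen in this way and stood at 521, 377 and 309 FPKM in APEX1-OE and at 449, 424 and 310 FPKM in Ctrl, more than any member. Its side A values lay above its side B values in FPKM, an order that 7 of the 8 GC-rich members had in CPM.

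As a comparison, 30 genes listed under G2 and mitosis were counted. None was called. At an unadjusted p under 0.05 with the condition alone, 1 was higher (3.33%) and 0 lower, beside 0.395% and 0.301% of all genes. This was CENPE, a kinesin of the kinetochore, at a log2 fold change of 0.61 with a standard error of 0.25, from 20 to 48 counts per library. KIF11 and CDC25C followed, at 0.56 and -0.27 with standard errors of 0.39 and 0.22. The median over these 30 genes was 0.11, beside 0.07 for the replication and G1/S genes. With the side as a term, 4 of the 30 (13.3%) were higher and 0 lower at that p, beside 6 (15.4%) and 0 of the 39. Of all genes, 8.61% were higher and 3.02% lower. With the offset for GC content and length added, 5 of the 30 (16.7%) were higher and 1 (3.33%) lower, beside 6 (15.4%) and 0 of the 39. The shares of all genes were then 7.77% and 4.79%.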

How the data were processed

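After trimming with the FASTX-Toolkit and alignment to GRCh38 by TopHat2, the authors deposited raw counts of uniquely mapped reads per gene. The authors also deposited FPKM values per gene, made from the same reads. The libraries were made with a stranded mRNA kit, according to the paper. The counting tool, its annotation and its use of strand were not stated in any source used here. Groups came from the sample labels, which do not say whether libraries came from separate cultures, so p-values measure only the spread between these libraries.

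Counts were tested over the whole table in R 4.3.3 with edgeR 4.0.16 (TMM scaling, filterByExpr with minimum count 10 and total 15, robust quasi-likelihood F-test, condition as the only term, all 6 libraries, Benjamini-Hochberg adjustment at 0.05). No fold threshold was used. FPKM served to compare genes with each other and was tested by exact permutation. limma 3.58.1 and DESeq2 1.42.0 gave alternatives. The offset for GC content and length used splines with 5 degrees of freedom, for the 98.7% of tested genes matched in GENCODE release 44. The edgeR fit with the condition alone was tested on simulated counts with a single dispersion and no library sides. The side term and the offset were not tested in this way. No pair of libraries within a group had counts alike within sampling noise, the closest being Ctrl replicates 1 and 2 at a chi-square per degree of freedom of 3.78.

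Named were APEX1, all 39 members and, of the other lists, called genes and the 3 with the lowest p per list. Members, lists and alternatives were chosen with earlier results of these data known. Splicing and clinical samples were not analysed here, nor was CDKN2B.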

Additional observations from a re-analysis of the deposited data

How the results depend on the processing

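With another scaling, filter, tool or unit, or with any library left out, 0 of the 39 members were called at an adjusted p under 0.05, and the median log2 fold change of the members stayed between 0.001 and 0.108 in edgeR when libraries were left out. Of 695 values of single members under 18 alternatives, 694 moved by less than the spread between replicates or kept their direction, and 1, GINS4 with side and offset, went from -0.05 to 0.06. Each group holds libraries of both sides, so that spread includes the side difference, and the 694 say little on how steady the fold changes were. Up to 15 of 39 members changed sign within that spread (with the side as a term, and 12 without APEX1-OE replicate 1). CDT1, which went from 0.05 to -0.31 without APEX1-OE replicate 1, was among the 694. Members at an unadjusted p under 0.05 numbered 0 with the condition alone, beside 0.395% of all genes higher and 0.301% lower. They numbered 1 without a filter on low counts (1.4% of all genes higher), 6 (15.4%) with the library side as a term and 6 (15.4%) with side and offset. When a library was left out they numbered between 0 and 3, with 3 (7.69%) without APEX1-OE replicate 1, beside 5.11% of all genes higher. Pathway genes at that p numbered 0, then 15 with the side, 7 with side and offset, 1 with limma on log2(FPKM + 1), and between 0 and 3 when a library was left out. With the side, 15.4% of the pathway genes were higher and 3.85% lower, beside 8.61% and 3.02% of all genes. With side and offset these shares were 7.69% and 1.28%, beside 7.77% and 4.79% of all genes. Members whose groups do not overlap numbered between 0 and 13 when a library was left out: 13 without APEX1-OE replicate 1 (25.8% of all genes), 2 once APEX1-OE replicate 3 was dropped (10.5%), 1 with Ctrl replicate 2 left out (5.86%) and 2 if Ctrl replicate 3 was removed (14.8%). The cause was not tested. The log2 fold change of APEX1 stayed between 2.36 and 2.46 when a library was left out, with an adjusted p in edgeR of up to 0.210.

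The correlations of the deviations from the group means were 0.61, -0.52 and 0.70 for replicates 1, 2 and 3. Replicates 1 and 3 lay on the same side in both groups and replicate 2 did not, so these signs follow the sides. Whether the replicate numbers mark pairs was not tested. When the replicate number entered as a block, 1 member (2.56%) and 3 of the 78 tested pathway genes had an unadjusted p under 0.05, beside 2.83% of all genes higher. No member was called, and the median of the members was 0.07. Depth limits CCNE2, with 6 to 54 counts per library, and CLSPN, CDC7, DBF4 and E2F2, which stayed under 250 counts in every library.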
